A study of Mus musculus with 6 samples.

Results

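The miRNAs described here are the 8 mature products of the Clcn5 intron cluster, mmu-miR-188-5p, mmu-miR-362-5p, mmu-miR-362-3p, mmu-miR-500-3p, mmu-miR-501-5p, mmu-miR-501-3p, mmu-miR-532-5p and mmu-miR-532-3p, as they were measured in mouse prefrontal cortex. They were chosen by name, from hairpins that lie inside Clcn5, and not by any measured value, although earlier results of these data were known. All 8 were found in the deposited table, which listed 1013 different sequences, 772 of them under a mouse name (prefix mmu). Small RNA was sequenced from male C57BL/6 mice, an inbred strain, labelled 30 weeks old. The control group was given water (0 mg per kg PS-NP) and the other was given nano-polystyrene particles (PS-NP) at 50 mg per kg body weight by daily gavage for 6 months, with 3 libraries in each. No other allele or agent is named for either group, and the labels do not tie libraries to single animals, so the p-values reflect how far these libraries scatter, and that scatter may be technical.

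A miRNA is cut out of a longer hairpin RNA, which leaves a 5p strand and a 3p strand. Usually one strand is kept in an Argonaute protein, where its seed, bases 2 to 8, pairs with target mRNAs, and the other is degraded. Clcn5 encodes the endosomal chloride/proton exchanger ClC-5, best known from the kidney, where its loss causes Dent disease in humans. Several hairpins inside 1 intron can be released from a single host transcript, but each is then processed, loaded and degraded on its own. In rat hippocampal neurons miR-501-3p has been described as a repressor of the AMPA receptor subunit GluA1, and miR-188-5p as a repressor of neuropilin-2.

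In the GENCODE annotation of GRCm38, Clcn5 lies on the minus strand of chromosome X from 7153810 to 7319358. All 5 hairpins stood in 1 intron of 103648 bases (7213011 to 7316658), which is intron 3 of 14 in one protein-coding transcript and intron 2 of 6 in another, and none overlapped an exon. In the direction of transcription the order was Mir532 (7248402 to 7248497), Mir188 (7247989 to 7248056), Mir362 (7241982 to 7242046), Mir501 (7241243 to 7241351) and Mir500 (7237683 to 7237774). The whole cluster spanned 10815 bases. Mir532 and Mir188 were 345 bases apart, a gap of 5942 bases followed, and Mir362 and Mir501 were 630 bases apart.

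The sequences counted under each name are shown because the arms fall into groups by seed, in capitals. They are the deposited sequences in DNA letters, 5′ to 3′.
miR-532-5p: cATGCCTTgagtgtaggaccgt
miR-188-5p: cATCCCTTgcatggtggaggg
miR-362-5p: aATCCTTGgaacctaggtgtgaatgc
miR-501-5p: aATCCTTTgtccctgggtgaa
miR-500-3p: aATGCACCtgggcaagggttc
miR-501-3p: aATGCACCcgggcaaggatttg
miR-362-3p: aACACACCtgttcaaggattc
miR-532-3p: cCTCCCACacccaaggcttgc

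miR-500-3p and miR-501-3p shared the seed ATGCACC, and no other sequence of the table carried it. miR-362-5p shared ATCCTTG with miR-500-5p, the other strand of the Mir500 hairpin. The seed of miR-362-3p, ACACACC, also belonged to miR-329-3p, a miRNA of the imprinted Dlk1-Dio3 region. In these libraries miR-329-3p stood at 537 to 706 CPM (counts scaled to a common depth with TMM library factors), against 3.58 to 6.61 CPM for miR-362-3p. The seeds of miR-501-5p, miR-532-3p and miR-188-5p were found on no other entry. The deposited miR-362-5p was 2 bases longer at its 3′ end than the RefSeq mature sequence, and miR-362-3p, miR-500-3p, miR-501-5p and miR-532-3p were each 1 base shorter. Each of the 8 sequences was found whole within its RefSeq hairpin.

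The hairpins that gave most reads, Mir501 and Mir532, are shown in full (RefSeq, GRCm38, minus strand), with the counted strands in capitals, since strand choice differed between them.
Mir501: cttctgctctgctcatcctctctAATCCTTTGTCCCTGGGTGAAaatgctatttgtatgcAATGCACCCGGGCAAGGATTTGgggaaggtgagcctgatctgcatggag
Mir532: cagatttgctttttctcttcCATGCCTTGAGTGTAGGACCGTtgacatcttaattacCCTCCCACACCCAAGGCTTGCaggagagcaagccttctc

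Library totals, here the summed reads of the 1013 listed sequences, ran from 6170649 to 9905745 reads, and the TMM scaling factors from 0.863 to 1.115. Shares of a library given below are shares of these totals, and reads filtered out before listing are not in them. Pearson's r of log2 CPM between libraries, across miRNAs, lay between 0.971 and 0.984 for libraries of the same group and between 0.967 and 0.984 for libraries of different groups. The tissue label was set against 3 miRNAs abundant in cortex: miR-124-3p stood at 32331 to 51379 CPM, miR-128-3p at 91706 to 129680 CPM and miR-9-5p at 22305 to 33621 CPM. Of miRNAs from other sources, red cell miR-451a stood at 37.1 to 91.9 CPM, liver miR-122-5p at 4.68 to 8.25 CPM and miR-10b-5p, of hindbrain and spinal cord, at 6.14 to 25.96 CPM. The ranges of the groups overlapped for these 6 miRNAs.

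Together the 8 miRNAs were a small part of the cortical miRNA pool, and an even one as a share of library reads. Their reads made up 0.114%, 0.111% and 0.107% of the control libraries and 0.109%, 0.11% and 0.114% of the PS-NP libraries, each with a 95% Wilson interval of at most 0.0026 percentage points to either side. In CPM the sum varied more between libraries, at 1246, 999.4 and 1109 in controls and 1260.2, 1033 and 1023 with PS-NP. The group means were 1118 ± 124 and 1106 ± 134 CPM (SD, n = 3 each), a PS-NP to control ratio of 0.989. The groups overlapped, and their means differed by less than either SD. These are bulk tissue libraries, so fewer cells of a type and less RNA per cell cannot be told apart.

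The members with reads in every library kept 1 order of abundance in all 6 libraries: miR-501-3p, miR-532-5p, miR-532-3p, miR-362-5p, miR-500-3p, miR-501-5p and miR-362-3p. The CPM ranges of neighbours in that order did not overlap, although some came close. In PS-NP library 2 miR-501-3p had 1.01 times the reads of miR-532-5p, and in control library 1 it had 2.40 times. The closest other step was from miR-532-3p down to miR-362-5p, where the ratio within a library ran from 1.11 to 2.61. Adapter ligation favours some small RNA sequences over others, so an order between miRNAs is an order of reads.

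**Figure D1:**
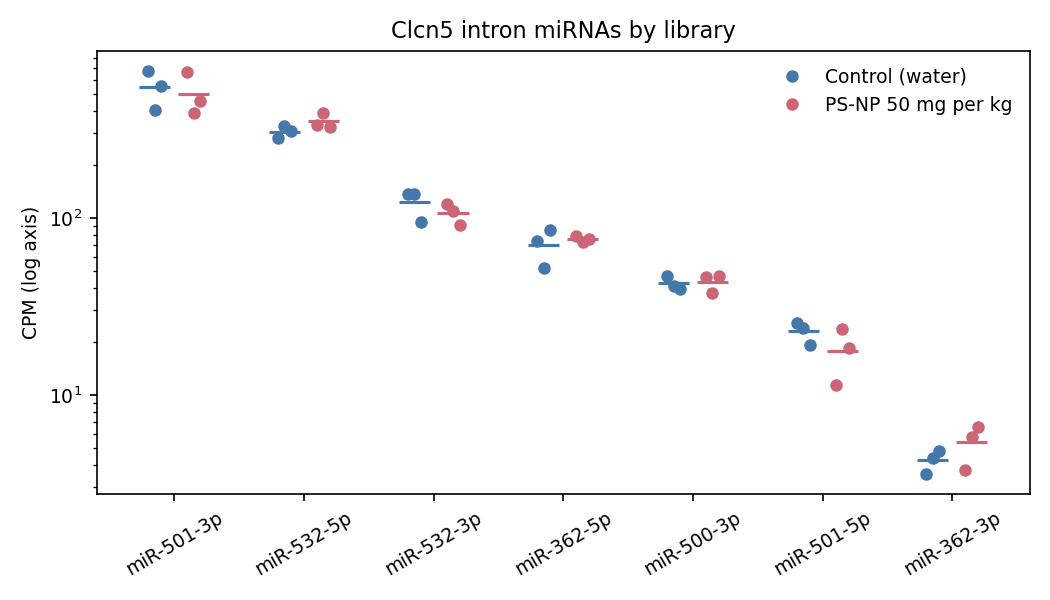
Level of each miRNA of the cluster with reads in every library, as CPM on a log axis, with 1 point per library and a line at the group mean (3 control and 3 PS-NP libraries). The order from miR-501-3p to miR-362-3p is the same in both groups, and the points of the groups overlap for each miRNA.

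Mir501 supplied the most abundant member. mmu-miR-501-3p stood at 677, 409.8 and 557 CPM in the controls and at 665, 393 and 455 CPM in the PS-NP libraries. Each group held high and low libraries, and the group means, 548.1 ± 134 and 504.5 ± 142 CPM, differed by less than either SD. The edgeR quasi-likelihood test gave a log2 difference (PS-NP minus control) of −0.12 (SE 0.26, 95% interval −0.70 to 0.46, adjusted p = 0.942). This difference turned to 0.065 without control library 1 and to 0.018 without PS-NP library 2. The level was highest in control libraries 1 and 3 and PS-NP library 1, whose TMM factors were 0.916, 0.963 and 0.863, and lowest in the others, with factors of 1.108, 1.064 and 1.115. The part of library composition in these levels was not tested.

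Its opposite strand, miR-501-5p, stood at 25.6, 23.8 and 19.0 CPM in the controls, against 11.4, 23.5 and 18.4 CPM in the PS-NP libraries. The first PS-NP library was the lowest of the 6, while the second lay among the controls. The log2 difference was −0.36 (SE 0.30, 95% interval −1.03 to 0.32, adjusted p = 0.906 by edgeR), and without PS-NP library 1 it was −0.13. The 5p strand gave only 3.64%, 5.50% and 3.30% of the Mir501 reads in controls and 1.69%, 5.64% and 3.88% with PS-NP (95% Wilson intervals of at most 0.822 percentage points to either side). Mir501 was therefore read mostly from its 3p strand in all 6 libraries.

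Mir532, the first hairpin of the cluster to be transcribed, gave reads from both strands. mmu-miR-532-5p, which has been described as a repressor of RUNX3 in human cancer cells, stood at 282, 331 and 308 CPM in the controls and at 334, 391 and 328 CPM in the PS-NP libraries. Control library 2 lay above PS-NP library 3, so the groups overlapped by that pair. Its log2 difference was 0.19 (SE 0.17, 95% interval −0.18 to 0.57, adjusted p = 0.906 by edgeR), and it was 0.092 without PS-NP library 2.

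miR-532-3p stood at 136.1, 135.7 and 94.8 CPM in the controls and at 120.5, 109.6 and 91.3 CPM in the PS-NP libraries. The lowest control lay below 2 of the 3 PS-NP libraries. In edgeR the log2 difference was −0.19 (SE 0.21, 95% interval −0.67 to 0.29, adjusted p = 0.906). The sequence of miR-532-3p is 66.7% G and C, the highest share of the 8, and with the GC trend of each library removed its log2 difference was 0.066.

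The strand balance of Mir532 varied more between libraries than counting error allows. The 5p strand gave 67.5%, 70.9% and 76.5% of the hairpin's reads in controls and 73.5%, 78.1% and 78.2% with PS-NP, with 95% Wilson intervals of at most 1.66 percentage points to either side. As log2 of (5p reads + 1)/(3p reads + 1), the arm ratio was 1.35 ± 0.33 in controls and 1.72 ± 0.21 with PS-NP (SD, n = 3 each), a difference of 0.37. The third control lay above the first PS-NP library, and the two-sided exact permutation test gave p = 0.2, adjusted p = 0.5 over the 5 hairpins, where 3 libraries against 3 cannot go below 0.1. With any single library removed the difference stayed positive, from 0.22 to 0.55. With the GC trend of each library removed, the edgeR log2 differences of the strands lay closer together. They were 0.28 for miR-532-5p and 0.066 for miR-532-3p, against 0.19 and −0.19 in the main fit. The arm ratio itself was not tested with the GC trend removed.

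**Figure D2:**
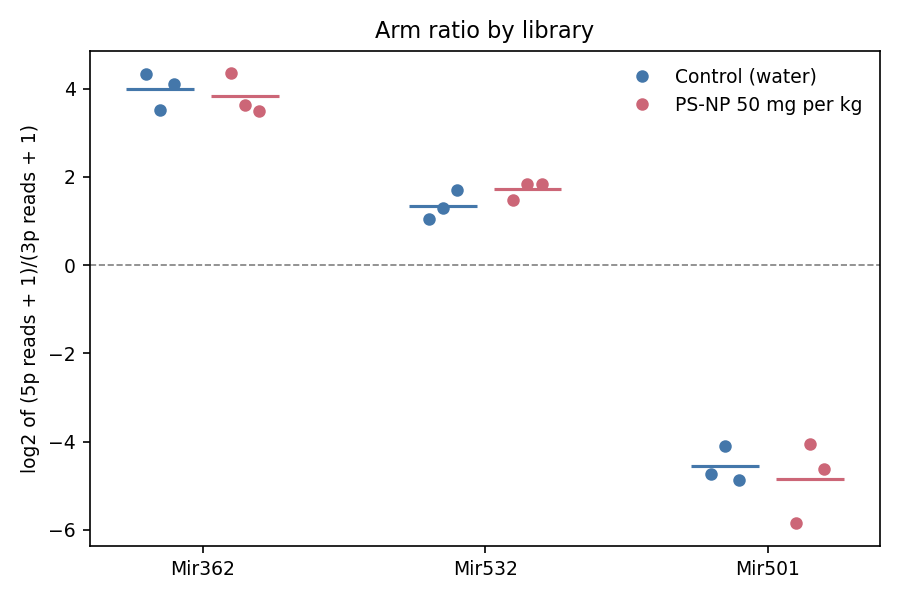
Arm ratio of the 3 hairpins with both strands in every library, as log2 of (5p reads + 1)/(3p reads + 1), with 1 point per library and a line at the group mean (3 control and 3 PS-NP libraries). Points above the dashed line at 0 mark more 5p than 3p reads: Mir362 and Mir532 lie above it and Mir501 below it in all 6 libraries.

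Mir362 was read mostly from the 5p strand, the opposite of Mir501, 630 bases further along. mmu-miR-362-5p, a reported repressor of CYLD in human cells, stood at 74.1, 52.1 and 85.3 CPM in the controls and at 79.4, 73.4 and 75.6 CPM in the PS-NP libraries. All 3 PS-NP libraries lay inside the range of the controls. The log2 difference was 0.11 (SE 0.22, 95% interval −0.39 to 0.61, adjusted p = 0.933 by edgeR), and without control library 2 it was −0.070.

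miR-362-3p had few reads, 31, 30 and 30 in controls and 25, 52 and 73 with PS-NP. In CPM these were 3.58, 4.39 and 4.84 against 3.75, 5.79 and 6.61, with PS-NP library 1 below 2 of the 3 controls. Its log2 difference was 0.35 (SE 0.35, 95% interval −0.46 to 1.15, adjusted p = 0.906 by edgeR), and without PS-NP library 3 it was 0.15. The 5p strand gave 92.0% to 95.5% of the Mir362 reads over the 6 libraries (95% Wilson intervals of at most 2.69 percentage points to either side). The arm ratio differed by −0.15 between the groups (two-sided exact permutation test, p = 0.8, adjusted p = 0.9), and that of Mir501 by −0.28 (exact permutation p = 0.9, adjusted p = 0.9). Without PS-NP library 1 the Mir501 difference was 0.22, and without control library 1 the Mir362 difference was 0.018; without PS-NP library 3 the latter was 0.011.

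Mir500 is the last hairpin of the cluster to be transcribed. mmu-miR-500-3p stood at 47.2, 41.4 and 39.8 CPM in the controls and at 46.1, 37.4 and 47.0 CPM in the PS-NP libraries. The highest library of miR-500-3p had 1.26 times the CPM of its lowest, against 1.72 times for miR-501-3p, its partner by seed. The log2 difference was 0.02 (SE 0.20, 95% interval −0.43 to 0.47, adjusted p = 0.981 by edgeR), and with single libraries removed it ran from −0.058 to 0.10. The opposite strand, miR-500-5p, was listed with 9 reads in control library 1 and at 0 in the other 5. With 0 listed in those 5 libraries, controls 2 and 3 among them, the arm ratio of Mir500 there was set by the added 1 and by the 3p reads. The difference was −1.41 (exact permutation p = 0.1, adjusted p = 0.5), and the groups did not overlap, but this does not measure strand choice. Without control library 1, the library with the 5p reads, the difference was −0.51. That value came only from 3p reads not scaled for depth, 283 and 247 in controls 2 and 3 and 307, 336 and 519 with PS-NP. With 5 added in place of 1, over all libraries, the difference was −0.79.

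Mir188, which lies between Mir532 and Mir362, gave almost no reads. miR-188-5p was listed with 8 reads in control library 2, 7 in PS-NP library 3 and 0 in the other libraries. The opposite strand, miR-188-3p, was listed with 5 reads in control library 1, with 6 and 15 in PS-NP libraries 2 and 3, and at 0 elsewhere. Values under 5 are almost absent from the table, so a listed 0 may stand for a few reads. Neither strand had enough reads to be tested, and the arm ratio of Mir188 (difference −1.46, exact permutation p = 0.5, adjusted p = 0.833) rested on such listings. Without control library 2 it was 0.023. Its neighbour Mir532, 345 bases upstream in the same intron, had 15977 reads of the 5p and 5489 of the 3p strand over the 6 libraries, against 15 and 26 for Mir188.

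Of the 8 members, 7 passed the minimum of 10 reads in at least 3 libraries and were tested. None of the 7 passed an adjusted p of 0.05 in edgeR, DESeq2 or limma-voom, and 0 had an unadjusted p under 0.05 in any of these tools. Over all 639 sequences tested by edgeR, 0.0% passed the adjusted threshold and 2.35% had an unadjusted p under 0.05. The log2 difference was above 0 for 4 members and below 0 for 3, and 47.9% of all tested sequences lay above 0. The median was 0.02 over the 7 members and −0.02 over all tested sequences. In 0 of the 7 did the 3 PS-NP libraries all lie on one side of the controls, as they did in 9.55% of all tested sequences. The 95% intervals still allow sizeable differences: from 0.616 to 1.38 times the control level for miR-501-3p, from 0.88 to 1.48 times for miR-532-5p, and from 0.729 to 2.21 times for miR-362-3p.

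The total, steady as a share of library reads, was divided unevenly between the hairpins from library to library. Mir501 gave 56.4%, 43.4% and 51.9% of the cluster's reads in controls and 53.7%, 40.3% and 46.3% with PS-NP. Mir532 gave 33.6%, 46.7% and 36.3% in controls and 36.1%, 48.4% and 40.99% with PS-NP. The libraries with the lowest Mir501 shares had the highest Mir532 shares, and these were control library 2 and PS-NP library 2. Shares add up to a whole, so the 2 hairpins that hold most reads must run against each other. The 95% Wilson intervals reached at most 1.18 percentage points to either side, so the spread within each group exceeded counting error. The mean share of Mir501 was 50.6% ± 6.62 in controls and 46.8% ± 6.70 with PS-NP (SD, n = 3 each), a difference smaller than either SD, and that of Mir532 was 38.9% ± 6.93 and 41.8% ± 6.22. The Mir532 difference of 2.96 percentage points turned to −0.336 without PS-NP library 2 and was 6.88 without control library 2, while that of Mir501, −3.82, was −0.584 and −7.42. Between libraries of the same number, the Mir501 share was lower and the Mir532 share higher with PS-NP each time. As the 2 shares run against each other, these are not separate results, and with n = 3 each they only describe the libraries. Whether the numbers mark pairs was not tested. Mir362 gave 5.65% to 8.13% and Mir500 3.59% to 4.59% over the 6 libraries.

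**Figure D3:**
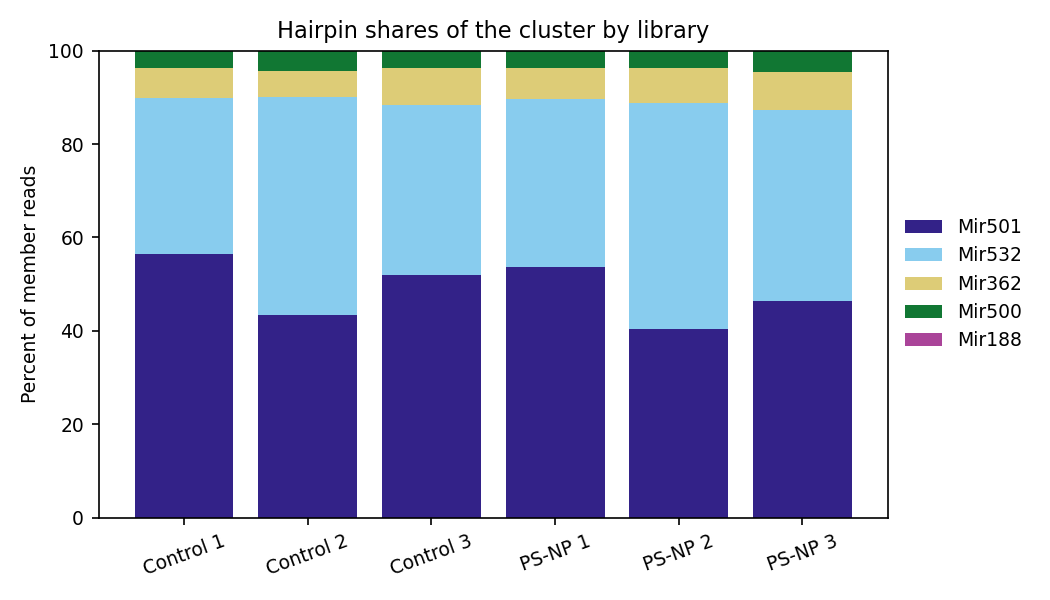
Share of the cluster's reads (percent, y axis) that came from each hairpin in the 6 libraries (x axis), counting the 8 members. Mir501 runs from 40.3% to 56.4% and Mir532 from 33.6% to 48.4%, with high and low libraries in both groups, and Mir188 is too small to see.

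To set the cluster beside other miRNAs of the same chromosome, a list of 27 X-linked mouse miRNA names outside Clcn5 was used, of which 21 were in the table and 17 were tested. Their log2 difference was above 0 in 12 and below 0 in 5, with a median of 0.15, and 0 passed the adjusted threshold or had an unadjusted p under 0.05 in edgeR. Among all tested sequences 47.9% lay above 0. Without PS-NP library 3 the median was 0.072, while leaving out PS-NP library 1 gave 0.29. The groups did not overlap in 4 of the 17, against 9.55% of all tested sequences. These 4 went both ways, with miR-98-5p and miR-450a-5p higher with PS-NP and miR-222-3p among the lower. The most abundant were miR-221-3p, miR-222-3p and miR-361-5p, with log2 differences of −0.01 (SE 0.17), −0.23 (SE 0.15) and 0.02 (SE 0.24). Those of lowest unadjusted p were miR-384-3p at 16.7 ± 1.29 CPM (controls) and 24.1 ± 7.79 CPM (PS-NP), miR-98-5p of the let-7 family at 51.9 ± 1.96 and 65.7 ± 4.93 CPM, and miR-450a-5p at 6.43 ± 0.624 and 9.59 ± 3.14 CPM (adjusted p = 0.906 by edgeR for each). The difference between the X-linked list and the Clcn5 cluster was not tested.

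**Figure D4:**
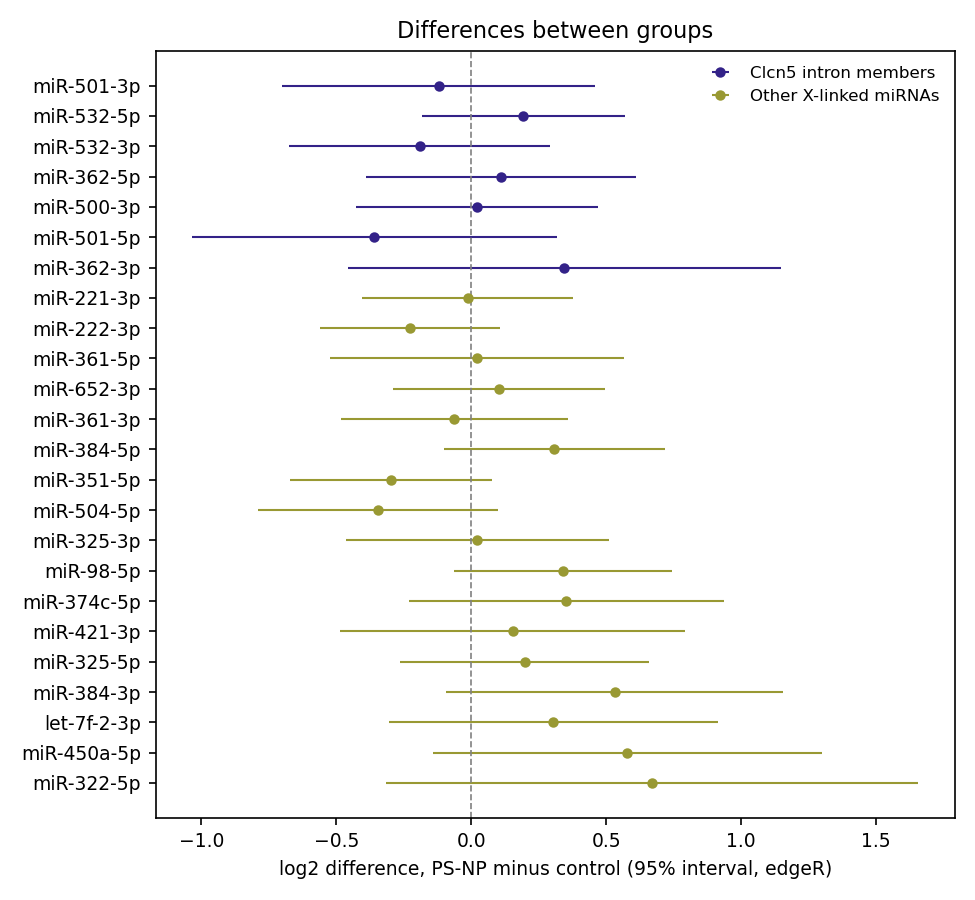
The log2 difference, PS-NP minus control, with its 95% interval from edgeR for the 7 tested miRNAs of the Clcn5 intron and 17 other X-linked miRNAs, each set in order of abundance. The intervals of all 24 cross 0, and the cluster's values run from −0.36 (miR-501-5p) to 0.35 (miR-362-3p).

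The sequences whose levels ran most like the cluster's over the 6 libraries were found by Pearson's r between log2 CPM and the mean of the 7 tested members, each centred on its own mean, among 416 sequences with a mean of at least 10 CPM. They were an entry of let-7f-1-3p with a base change (r = 0.79), miR-184-3p (r = 0.725) and let-7e-5p (r = 0.72). The mean cluster profile itself moved little, from −0.06 in control library 2 to 0.09 in control library 1 on the log2 scale. With 6 libraries and a profile this flat, these values only describe the libraries.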

How the data were processed

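Per the labels' protocols, Trizol-extracted RNA went into TruSeq small RNA libraries for Illumina HiSeq sequencing, and the submitters' ACGT101-miR program filtered out dimers, junk and the common structural RNA families. Neither a genome build, a miRBase release nor the mismatch settings are stated there. More libraries were made than the 6 used, per the labels.

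The deposited raw values are estimated counts per entry, and a sequence on several entries has its reads divided among them. Whole numbers (within 1e-06) made up 86.8% of raw values as listed and 95.05% after entries of 1 sequence were summed. Sums were rounded before testing. The deposited norm values are a normalized signal, 1 factor per library times the raw value (0.714 to 1.27), and served only as an alternative scaling. Of 3981 whole values above 0 on single entries, 18 were under 5 and 256 were exactly 5. Lines not used here numbered 3.

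The 639 sequences that reached 10 reads in 3 or more libraries were tested with edgeR 4.0.16 (TMM, quasi-likelihood test, Benjamini-Hochberg adjustment at 0.05, R 4.3.3). The fit was also run on simulated counts, with changes far larger than those of the members. That run does not bear on differences as small as theirs. The SE is the log2 difference divided by the square root of F. DESeq2 1.42.0 and limma-voom 3.58.1 were alternatives. Arm ratios were tested with exact permutation tests (scipy 1.17.1). Wilson intervals cover counting error only, since reads carry no molecular identifiers.

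Of the 10 strands of the 5 hairpins, 9 had a mature sequence in the RefSeq table (GRCm38), and miR-532-5p was taken from the deposited table. The members, the lists, the tests and the rule for named miRNAs were chosen with earlier results of these data known. The rule named all members and other strands, the 3 X-linked miRNAs of lowest p and the 3 most abundant, and the 3 sequences most like the cluster. Control miRNAs of cortex, blood, liver and hindbrain, and miR-329-3p, were added later. The library numbers 1 to 3 stand in both groups. Deviations from the group mean over all tested sequences correlated at 0.31, 0.15 and −0.17 between same-numbered libraries. The same correlations between libraries of different numbers were not computed, so these values do not decide whether the numbers mark pairs. In the main fit the numbers were not taken as pairs. Within this cluster the ratio of miR-501-3p to miR-532-5p had the same order of library numbers in both groups. It was 2.40, 1.24 and 1.81 in controls 1 to 3 and 1.99, 1.01 and 1.39 with PS-NP. Whether the numbers mark pairs was not tested.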

Additional observations from a re-analysis of the deposited data

How the results depend on the processing

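None of the 7 tested members was called under any alternative: DESeq2, limma-voom, DESeq2 size factors, the authors' scaling, library totals, no filter, a mean of at least 100 reads (which leaves out miR-362-3p), entries not summed, a replicate block, GC trend removal, or each library left out. Under each of these settings 0 of all tested sequences were called, so the absence of calls is not particular to the cluster. With the library number as a replicate block, the log2 difference was −0.13 for miR-501-3p, 0.19 for miR-532-5p and −0.40 for miR-501-5p. With this block 0 members and 0 other sequences were called. GC trend removal turned miR-532-3p to 0.066. With single libraries removed, log2 differences spanned −0.37 to 0.065 (miR-501-3p), −0.070 to 0.27 (miR-362-5p), −0.058 to 0.10 (miR-500-3p) and −0.63 to −0.13 (miR-501-5p), and the summed level −0.12 to 0.069. The arm ratio difference ran from −2.85 to 0.023 for Mir188, −0.41 to 0.018 for Mir362, −0.68 to 0.22 for Mir501 and −1.91 to −0.51 for Mir500. The Mir500 range rests on the added 1 and on 3p reads, since its 5p strand was listed only in control library 1. The Mir500 share difference (0.116 percentage points) ran from −0.203 to 0.284, that of Mir501 from −7.42 to −0.584 and that of Mir532 from −0.336 to 6.88. The X-linked median ran from 0.072 to 0.29. The cause of these turns was not tested. Depth limits miR-188-5p, miR-188-3p and miR-500-5p, whose listed values sit near 5 reads, and miR-362-3p.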

Other observations

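A pair of entries named for other species held sequences of this cluster. The entry cgr-miR-532-5p_R+2 matched the mouse Mir532 hairpin over its first 22 bases, the whole of miR-532-5p, and carried 2 more bases at its 3′ end that the hairpin does not have. It was listed with 29, 14 and 20 reads in controls and 22, 28 and 35 with PS-NP. These were 0.615% to 1.18% of the reads of both entries together (95% Wilson intervals of at most 0.461 percentage points to either side). Its log2 difference was 0.15 (SE 0.40, adjusted p = 0.952 by edgeR). The entry ssc-miR-362_L+2R-3 matched the Mir362 hairpin over 22 bases after 2 unmatched bases at its 5′ end, and was listed with 5 reads in control library 3 and at 0 in the other 5 libraries. A further entry, miR-511-5p_L+1, shared the seed ATGCCTT with miR-532-5p and was listed at 0 to 10 reads. Names of the human cluster partners miR-502 and miR-660 were searched for with the mouse prefix, and 0 of these 4 names were among the entries analysed here.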
